A study of Saccharomyces cerevisiae with 30 samples.

Results

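The cytosolic ribosomal protein genes of budding yeast were followed through the yeast metabolic cycle in a yaf9 point mutant, W89A, and in wild type. Members were taken by gene name, as genes named RPL or RPS with a number and an optional copy letter together with the stalk genes RPP0, RPP1A, RPP1B, RPP2A and RPP2B. This gave 137 genes of 7127 features in the count table, 81 of the large subunit, including the 5 stalk genes, and 56 of the small subunit. Of the 137 genes, 114 formed 57 A and B duplicate pairs, 18 were single copies, and the remaining 5 were the stalk genes. By the deposited coordinates an intron interrupts 87 of the genes. RPL20A and RPL20B, whose deposited coordinates differ from those of the reference genome, were counted as without one. The naming rule uses no measured value.

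Both strains were of the CEN.PK122-alpha background and grew in a chemostat, first with ample nutrients and constant oxygen until they starved, and then on slowly fed low-glucose medium, under which the culture cycles. The mutant group (W89A) carried yaf9W89A, described as a mutant of the pocket of the YEATS domain, which is the part of Yaf9 that binds acylated histone lysines. The other group (WT) carried wild-type Yaf9. Total RNA from 5 time points of 3 consecutive cycles per strain gave 30 libraries in 10 groups of 3, with 16540627 to 20260295 counts per library. The labels number the time points and give no phase of the cycle. They name no separate cultures, so p-values measure the spread between cycles, and strain and culture cannot be told apart. Among the W89A libraries, those of the first cycle at time points 4 and 5 were placed as in the authors' comparison tables. The number order of the library titles would exchange them. Counts of calls that move by over 1.5 times under that order are given with both values.

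A ribosome is assembled from ribosomal RNA and one copy of nearly every ribosomal protein, and growing yeast spends a large part of its messenger RNA synthesis on these proteins. Their genes are controlled together. Rap1 binds most of their promoters and brings in Fhl1, its coactivator Ifh1 and often Hmo1, while Sfp1 and the TOR and protein kinase A pathways adjust the output to nutrients. Most ribosomal proteins come from an A and a B gene left by an ancient genome duplication, so each pair gives near-identical protein from separate promoters. In the metabolic cycle these genes are known to be expressed as a pulse in the growth phase, when oxygen uptake is high.

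A Rap1-type element was more common in member promoters than in promoters at large. A 9-letter core of the Rap1 site, ACCCNNACA on either strand, stood within the 500 bases before the start codon in 54 of the 137 genes (39.4%), against 328 of 6000 protein-coding genes (5.5%). A 10-letter form, with a further C before that core, was in 29 member promoters (21.2%), against 133 of the 6000 (2.2%). The 62 core matches began at positions -498 to -162 from the start codon, with a median of -322.5. In the windows below, 140 bases each of the yeast R64 reference, read 5′ to 3′ on the gene's strand, capitals mark the core on either strand. RPL9A, RPL2B and RPS0A are shown because each holds a match while its paralog holds none. RPL13A and RPL13B are shown because their matches lie between head-to-head genes of the large and small subunit, and RPP1B is shown for the stalk.
RPL9A (chrVII:228566-228705, - strand): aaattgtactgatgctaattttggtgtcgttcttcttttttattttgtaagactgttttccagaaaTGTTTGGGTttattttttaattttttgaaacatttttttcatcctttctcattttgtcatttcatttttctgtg
RPL2B (chrIX:316308-316447, + strand): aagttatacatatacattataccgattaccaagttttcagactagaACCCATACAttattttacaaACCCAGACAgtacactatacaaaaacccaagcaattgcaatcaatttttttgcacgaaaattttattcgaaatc
RPS0A (chrVII:920075-920214, + strand): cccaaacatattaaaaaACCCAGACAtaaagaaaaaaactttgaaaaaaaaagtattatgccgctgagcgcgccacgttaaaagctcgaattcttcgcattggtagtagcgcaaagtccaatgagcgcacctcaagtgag
RPL13A (chrIV:308140-308279, + strand): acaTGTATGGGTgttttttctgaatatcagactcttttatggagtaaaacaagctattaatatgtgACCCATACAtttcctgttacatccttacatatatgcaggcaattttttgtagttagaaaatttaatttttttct
RPL13B (chrXIII:551465-551604, - strand): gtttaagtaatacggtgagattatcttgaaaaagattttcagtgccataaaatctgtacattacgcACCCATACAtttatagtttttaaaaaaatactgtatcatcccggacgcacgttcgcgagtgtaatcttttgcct
RPP1B (chrIV:229566-229705, + strand): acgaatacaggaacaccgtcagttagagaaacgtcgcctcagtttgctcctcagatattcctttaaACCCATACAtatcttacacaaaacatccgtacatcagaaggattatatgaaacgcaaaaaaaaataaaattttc

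Other motifs were closer to the genomic share. The Fhl1-type motif GACGC was in 59 member promoters (43.1%), against 30.4% of all promoters. The Abf1 consensus was in 17.5% of the members and 22.7% of all, and the Tbf1 motif CCCTAA was in 5.1% and 12.5%. The PAC element GATGAG, known from ribosome biogenesis genes, was in 21.9% of the members and 28.2% of all promoters, and the RRPE element AAAATTTT was in 12.4% of each. All motifs were searched on both strands, and a match is only a run of letters in the window. The 10-letter Rap1 form overlaps the core by construction.

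The whole group swung together, and in W89A its level stayed high through time point 3. At time point 3, ribosomal protein genes held 13.11, 15.16 and 17.46% of all counts in the W89A libraries, against 7.11, 9.45 and 7.12% in the WT libraries. The lowest W89A library there stood above the highest WT library. At time point 2 the order was the other way, with 15.55, 17.39 and 14.28% in W89A and 23.61, 19.68 and 17.91% in WT, and the groups did not overlap. In bulk RNA, more of this RNA per cell and more cells in the growth phase cannot be told apart.

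At the other time points the shares lay closer together. At time point 1 they were 11.74, 10.95 and 11.01% in W89A, against 15.95, 11.55 and 12.90% in WT. At time point 5 they were 6.04, 6.89 and 6.02% in W89A, against 5.86, 5.39 and 5.63% in WT. At time point 1 only the first-cycle W89A library overlapped the WT range, from below, and at time point 5 the W89A libraries all lay slightly above the WT libraries. At time point 4 the W89A libraries of cycles 1 and 2 held 2.49 and 2.97% and the library of cycle 3 held 5.97%, while the WT libraries held 4.60, 4.92 and 5.06%. The WT libraries thus lay between the W89A libraries. Both statements rest on the placing of the first-cycle W89A libraries. In title order, the W89A library of cycle 1 would hold 6.04% at time point 4, leaving only the cycle 2 library below WT, and 2.49% at time point 5, below all WT libraries there. The W89A means would then be 4.99% at time point 4 and 5.13% at time point 5.

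**Figure D1:**
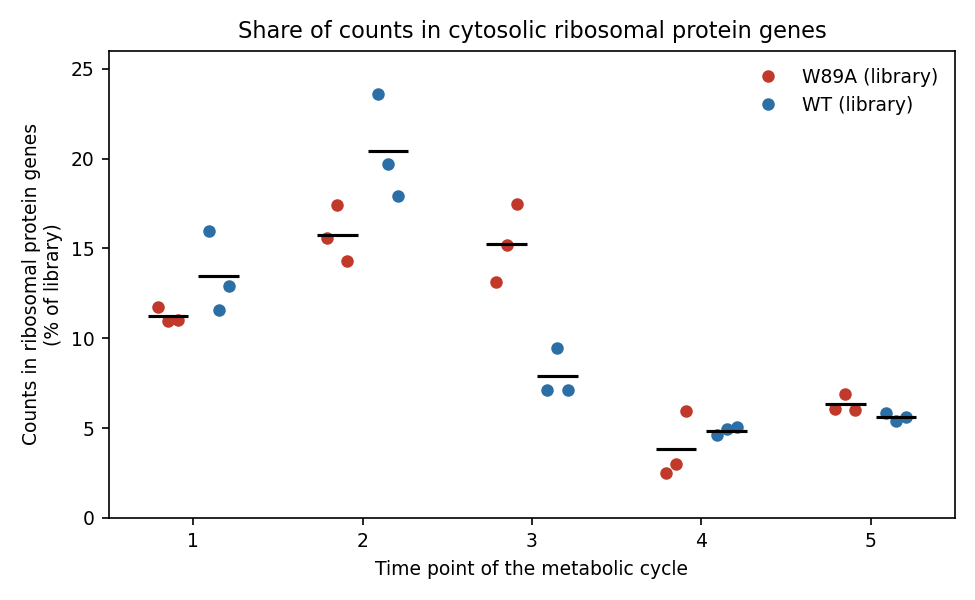
Share of each library's counts (vertical axis, %) that fell on the 137 ribosomal protein genes, by time point (horizontal axis), for W89A (red) and WT (blue). Points are libraries and black lines are means of 3. The mean at time point 3 was 15.2% in W89A and 7.89% in WT, close to the W89A mean of 15.7% at time point 2.

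Nearly every member cycled in both strains. By edgeR's quasi-likelihood test with Benjamini-Hochberg adjustment over 6256 genes, 134 of 137 members changed over the W89A cycle (75.5% of all genes tested did so) and 135 over the WT cycle (81.5% of all). The median range between the highest and lowest group mean was 2.35 on the log2 scale in W89A and 2.19 in WT. In W89A the highest mean stood at time point 2 for 112 members and at time point 3 for 25, against 30.6% and 16.9% of all genes with their highest mean there. In WT, it stood at time point 2 for 133 members, against 29.6% of all genes, and at time point 3 for none, against 11.9% of all genes. The lowest mean was at time point 4 for 136 members in W89A, with its libraries placed as in the tables, and 133 in WT. The share of all genes with their lowest mean there was not computed, so these 2 counts have no background beside them.

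Both subunits moved in step. Counts of the large subunit over those of the small subunit stayed between 1.32 and 1.36 as a mean per time point in W89A and between 1.31 and 1.38 in WT. The median range over the cycle was 2.39 for the large subunit and 2.33 for the small subunit in W89A, against 2.22 and 2.18 in WT.

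A total of 126 of 137 members were higher in W89A at time point 3 and none was lower, where 28.2% of all genes tested were higher and 22.9% lower. The median log2 fold change of the members was 1.11, with the middle 50% between 0.94 and 1.28, and that of all genes was 0.08. The rise took in 72 of 81 large-subunit and 54 of 56 small-subunit genes, with medians of 1.11 and 1.12. Duplicated and single-copy genes had like medians, 1.09 for A copies, 1.13 for B copies and 1.12 for single copies. Members with a Rap1 core match had a median of 1.12 and those without one of 1.10. The 3 W89A libraries stood wholly above the 3 WT libraries for 129 members, against 32.5% of all genes. In the authors' deposited table for this time point, 128 members were higher at an adjusted p below 0.05 and none lower, against 22.5% of the genes in that table higher.

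The largest rises were in RPL9A and RPS22A. RPL9A, a copy of the gene for large-subunit protein uL6, had 763, 981 and 1155 CPM (counts per library scaled by TMM) in W89A, against 230, 411 and 206 CPM in WT. All W89A libraries were well above all WT libraries. The log2 fold change was 1.77 ± 0.33 (SE, n = 3 each; edgeR adjusted p = 8.78e-05). RPS22A, a copy of the gene for small-subunit protein uS8, had 1003, 1241 and 1525 CPM in W89A, against 333, 473 and 329 CPM in WT. Its groups also stood far apart, and the log2 fold change was 1.73 ± 0.27 (SE, edgeR adjusted p = 9.09e-06).

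The smallest rises past the threshold were in RPL9B and RPL6A. RPL9B, the other uL6 gene, had 562, 649 and 812 CPM in W89A, against 393, 425 and 510 CPM in WT. The groups were separate but close, with a log2 fold change of 0.61 ± 0.17 (SE, edgeR adjusted p = 0.0034). Both ends of the order were therefore held by copies of the same gene. RPL6A, one of the genes for large-subunit protein eL6, had 536, 597 and 807 CPM in W89A, against 470, 442 and 351 CPM in WT, a log2 fold change of 0.62 ± 0.21 (SE, edgeR adjusted p = 0.0161). Neither call held in title order (edgeR adjusted p = 0.0589 for RPL9B and 0.0675 for RPL6A).

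The stalk genes encode the flexible arm of the large subunit that recruits translation factors, with RPP0 as its base and the RPP1 and RPP2 pairs as its acidic tips. All 5 rose at time point 3. RPP2B had 1631, 2344 and 2236 CPM in W89A, against 486, 906 and 669 CPM in WT, and the groups did not overlap. Its log2 fold change was 1.59 ± 0.31, followed by RPP2A at 1.46 ± 0.23, RPP1B at 1.31 ± 0.25, RPP0 at 1.19 ± 0.26 and RPP1A at 0.96 ± 0.25 (SE, edgeR adjusted p from 8.73e-06 for RPP2A to 0.00251 for RPP1A). In W89A, 4 of the 5, all except RPP2A, had their highest mean at time point 3. In WT all 5 had it at time point 2.

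Per length of coding sequence, RPS31, RPL38 and RPP2A were the most abundant members. RPS31, which encodes a ubiquitin fused to small-subunit protein eS31, reached 10716 ± 3104 CPM per kb (SD, n = 3) in WT at time point 2. RPL38, which encodes the small protein eL38, reached 9009 ± 2099 and RPP2A 7943 ± 2195 CPM per kb there. RPS31 at time point 3 had 2879, 3259 and 3955 CPM in W89A, against 1474, 2121 and 1364 CPM in WT. RPL38 had 1208, 1420 and 1804 CPM in W89A, against 529, 859 and 608 CPM in WT. Neither gene's groups overlapped, and the log2 fold changes were 1.03 ± 0.27 for RPS31 and 1.15 ± 0.24 for RPL38 (SE, edgeR adjusted p = 0.00268 and 0.000273).

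**Figure D2:**
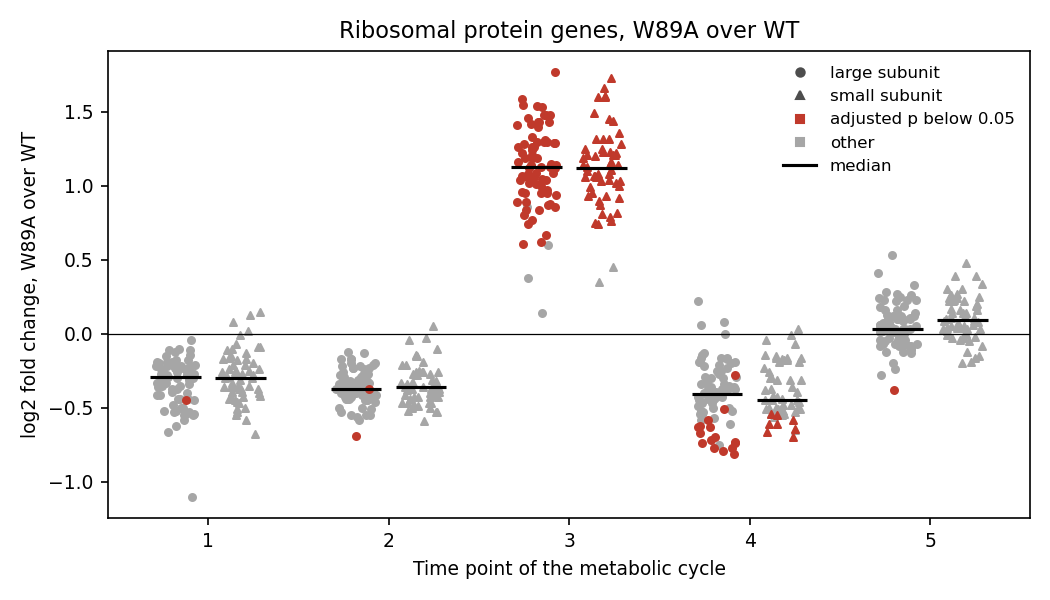
Log2 fold change of W89A over WT (vertical axis) by time point (horizontal axis) for the 132 members with a mean of at least 10 CPM. Circles are large-subunit and triangles small-subunit genes, red marks an edgeR adjusted p below 0.05, and black lines are medians. Both subunits stand above 0 at time point 3 and mostly below it at time points 1, 2 and 4.

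At time points 1 and 2 the members tended to lie lower in W89A, mostly without passing the test. At time point 1 the only call was RPL15B, lower, against 3.6% of all genes tested lower and 4.41% higher. The median log2 fold change of the members was -0.30, and 133 of 137 were below 0. Without the first-cycle WT libraries the median was -0.09. At time point 2, 2 members, RPL15B and RPL6A, were lower and none higher, against 4.64% and 8.44% of all genes, with a median of -0.36, or -0.21 without the first-cycle WT libraries. At an unadjusted p below 0.05, 24 members (17.5%) were lower at time point 1, against 13.3% of all genes, and 27 (19.7%) at time point 2, against 11.9%, not far from the background. None was higher. Libraries did not overlap, with W89A the lower, for 27 members at time point 1 (19.1% of all genes) and 29 at time point 2 (15.7%). The authors' deposited tables held 13 of 137 members as lower at time point 1, against 8.33% of their genes. At time point 2 they held 29 of 137, against 5.53%.

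RPL6A at time point 2 had 698, 767 and 655 CPM in W89A, against 1333, 1134 and 960 CPM in WT. The groups did not overlap, and the log2 fold change was -0.69 ± 0.21 (SE, edgeR adjusted p = 0.0309). The call was lost under 5 of 14 other settings, which gave log2 fold changes from -0.81 to -0.57.

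At time point 4, 24 members were lower in W89A, 16 of the large and 8 of the small subunit, and none was higher, against 10.5% of all genes tested lower and 10.9% higher. The median was -0.43. For 22 members all W89A libraries lay below all WT libraries, a share close to the 16.9% of all genes. The authors' deposited table for this time point held 13 members as lower and 0 as higher. In it 557 of 6578 genes were lower, a similar share. RPL43B had 79.2, 107 and 173 CPM in W89A, against 195, 189 and 247 CPM in WT, a log2 fold change of -0.81 ± 0.25 (SE, edgeR adjusted p = 0.0209). RPL7B had 24.8, 25.7 and 36.9 CPM in W89A, against 46.0, 51.2 and 54.3 CPM in WT, a log2 fold change of -0.79 ± 0.21 (edgeR adjusted p = 0.00995). In both genes the third-cycle W89A library was the closest to WT. At the other end of the calls, RPL14B fell by 0.51 ± 0.18 (edgeR adjusted p = 0.0403) and RPL15B by 0.28 ± 0.10 on the log2 scale (edgeR adjusted p = 0.0387).

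The edgeR count of 24 members lower at time point 4 rested on single libraries. It was 99 without the third-cycle W89A libraries, 0 without those of the first cycle and 2 without those of the second. Without the WT libraries of cycle 1, 2 or 3 it was 13, 9 and 1. With the first-cycle W89A libraries in title order it was 0, with a median of 0.06, and with both of them left out it was 0, with a median of -0.21.

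At time point 5 the strains differed little. RPL15B alone was called, lower, against 4.44% of all genes lower and 5.07% higher, and the median of the members was 0.05. In title order the median was -0.26, and RPL15B was again the only call. The authors' deposited table for this time point held 7 members as higher and 2 as lower, against 623 and 621 of its 6558 genes. Averaged over the 5 time points, 7 members were higher and 2 lower in W89A, against 27.1% and 21.7% of all genes, with a median of 0.00. RPS0B, a copy of the gene for small-subunit protein uS2, had the largest average rise at 0.35 ± 0.10 (SE, edgeR adjusted p = 0.00541). RPS27B, a copy of the gene for eS27, followed at 0.33 ± 0.11 (edgeR adjusted p = 0.0115). RPL6A was lower, with an average log2 fold change of -0.30 ± 0.09 (edgeR adjusted p = 0.0106, and 0.0724 in title order), as was RPL15B at -0.27 ± 0.04 (edgeR adjusted p = 1.29e-05). The number higher ranged from 1 to 12 and the number lower from 1 to 16 when each cycle of each strain was left out in turn.

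The strain difference depended on the time point for most members. The interaction test passed for 128 of 137, against 41.9% of all genes tested, and for 98 in title order. In the step between time points 2 and 3 the change in W89A exceeded that in WT for 128 members and fell short of it for none, against 19.1% and 16.8% of all genes, with a median difference of 1.48 on the log2 scale. In the step between time points 3 and 4 the change in W89A was the more negative for 128 members, against 17.3% of all genes, with a median difference of -1.54. With the first-cycle W89A libraries in title order the count for this later step was 8, with a median of -1.07, and with both left out it was 124. The count for the step between time points 2 and 3 was 121 in title order.

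RPL9A, the member with the largest fold change at time point 3, shows the course in its sharpest form. Its W89A group means over time points 1 to 5 were 555, 1083, 966, 105 and 249 CPM, and its WT means were 805, 1475, 282, 118 and 172 CPM. The W89A level at time point 3 was near its level at time point 2, whereas the WT level had fallen by then. Its step between time points 2 and 3 differed between strains by 2.22 ± 0.46 on the log2 scale (SE, edgeR adjusted p = 0.000628), the largest difference among the members.

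RPL15B stood apart from the group. It encodes the same large-subunit protein, eL15, as the abundant RPL15A. Its W89A libraries held 32.8 to 49.2 CPM over the whole cycle and its WT libraries 39.8 to 60.0 CPM. Its W89A mean was highest at time point 3, at 48.0 CPM, and its WT mean at time point 5, at 57.7 CPM. RPL15B was lower in W89A at time points 1, 2, 4 and 5, with log2 fold changes of -0.45 ± 0.10, -0.37 ± 0.10, -0.28 ± 0.10 and -0.38 ± 0.10 (SE, edgeR adjusted p = 0.00756, 0.0124, 0.0387 and 0.0150). With the libraries placed as in the tables, none overlapped at any of these 4 time points. Of 14 other settings, 2 lost the call at time point 1, 4 each at time points 2 and 5, and 7 at time point 4, where title order gave -0.13 (edgeR adjusted p = 0.454).

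At time point 3 the direction of RPL15B was the other way, with 47.1, 47.6 and 49.2 CPM in W89A against 43.5, 42.9 and 44.0 CPM in WT, and the difference did not pass the test (edgeR adjusted p = 0.22). RPL15A at that time point had 1551, 1889 and 2218 CPM in W89A, against 747, 906 and 660 CPM in WT. The RPL15A groups stood far apart, with a log2 fold change of 1.29 ± 0.23 (SE, edgeR adjusted p = 4.31e-05). None of the Rap1, Fhl1, Abf1 and Tbf1 motifs was found in the 500 bases before RPL15B, while the window before RPL15A held the Abf1 and Fhl1 motifs. RPL30 and RPS31, picked after their values were seen, also held none of them. Both were higher in W89A at time point 3. The Rap1 core was found in only 54 of the 137 members, so a window without a match does not show that a site is absent. A link between these motifs and the course of RPL15B was not tested. The deposited counts do not state strand or how reads shared by paralogs were counted. The coding sequences of RPL15A and RPL15B were 93.2% identical.

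Of the 137 members, 11 did not pass the test at time point 3. Beside RPL15B these were RPL22A, RPL28, RPL33A, RPL36B, RPL39, RPL41A, RPL41B, RPL43A, RPS25A and RPS9A. RPL22A, RPL28, RPL33A, RPL36B, RPL39 and RPL43A were also the 6 members with the fewest counts per length in WT at time point 2, from 2.11 CPM per kb for RPL39 to 60.9 CPM per kb for RPL28. In each of the 6, an annotated reading frame on the opposite strand covers 88.0 to 99.3% of the coding bases. The features on the other strand, BUD19, OPI11, YPL142C, YPL250W-A, BUD28 and YGL102C, had means of 0.2 to 7.0 CPM themselves.

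RPL15B, at 89.6 CPM per kb, was the lowest member without such an overlap, and the next had 691. The 123 members free of overlap had a median of 3006 CPM per kb, and the other 14, in which some coding bases were overlapped, a median of 572. In these 14 the overlapped share ran from 1.7% to 99.3%. Levels among these 14 varied. RPL10, with 61.3% overlapped, had 3109 CPM per kb, and RPP0, with 47.8%, had 3960. Per kb of coding bases not overlapped, RPL10 had 8027 CPM and RPP0 7588 CPM. On that scale the 6 lowest members ran from 54.8 for RPL39 to 970 for RPL43A. The bases not overlapped in these 6 numbered only 2 in RPL43A to 49 in RPL28. RPL39, which encodes a small protein lining the exit tunnel, had 0 counts in all W89A libraries of time point 4 and at most 27 in any library. RPL28, which encodes uL15, the protein altered in cycloheximide-resistant strains, had 7.59, 11.6 and 15.4 CPM in W89A at time point 3, against 3.69, 6.63 and 8.70 CPM in WT. The RPL28 groups overlapped, with a log2 fold change of 0.86 ± 0.40 (SE, edgeR adjusted p = 0.0774). How the counting treated reads in overlapped bases is not given in the sources used here, and the part of overlap in these low levels was not tested.

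**Figure D3:**
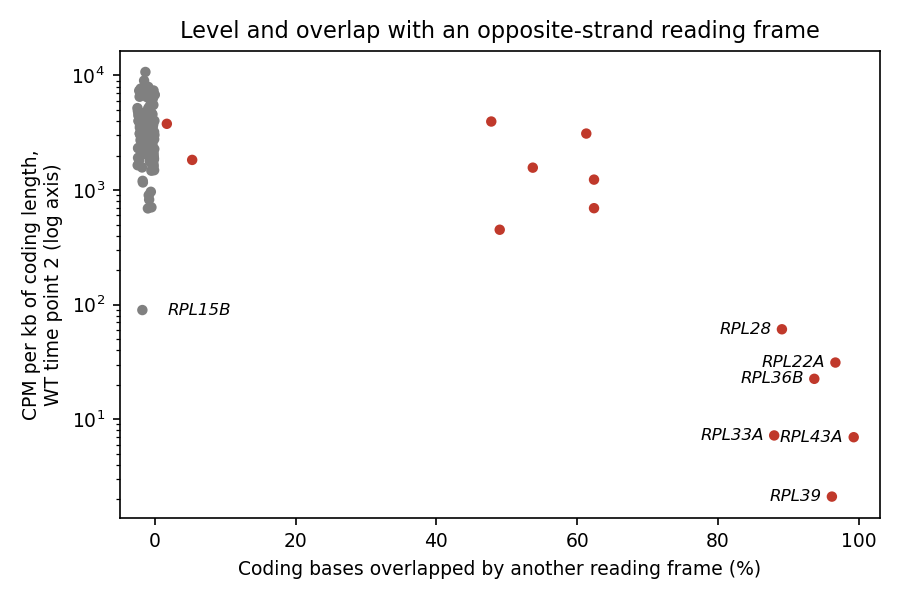
Level per kb of coding length in WT at time point 2 (vertical log axis, CPM per kb) against the share of coding bases overlapped by another annotated reading frame (horizontal axis, %) for the 137 members. Red points have an overlap and grey points, spread sideways for sight, have none. The 6 lowest members, from 2.11 to 60.9 CPM per kb, all lie at 88.0% overlap or more.

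Both members that did not pass the WT cycle test have short coding sequences. RPL39 was near 0 counts throughout (edgeR adjusted p = 0.745). RPL41A, one of the pair that encodes the smallest ribosomal protein, had 345 to 660 CPM in WT at time point 2 and 165 to 414 CPM at time point 4 (edgeR adjusted p = 0.0644). Its libraries varied widely within groups and its groups overlapped. Of the 137 members, 136 passed the WT cycle test without the first-cycle W89A libraries, and 136 with a replicate block within each strain. At most 1 of RPL39 and RPL41A therefore failed under those settings. The coding sequences of RPL41A and RPL41B were 98.7% identical, so their counts are uncertain between copies.

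A and B copies often differed in level. In WT the median absolute log2 ratio of A to B over the 57 pairs was 0.66, and 19 pairs differed at least 2-fold in their mean ratio. The A copy was higher in 32 pairs and the B copy in 25. The 4 largest ratios, in RPL43 (-8.56), RPL33 (-7.57), RPL36 (5.73) and RPL22 (-4.98), each set a copy against 1 of the overlapped genes. Among pairs free of overlap, picked after their values were seen, the largest were RPL15 (4.38), RPL18 (3.34), RPS30 (2.18) and RPS29 (-2.15). In 10 pairs the coding sequences were at least 97% identical, so their ratios rest on few distinguishing bases. These ratios are descriptions, with no test of their own.

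Most ratios held steady over the cycle, with a median range of the group mean of 0.60 in W89A and 0.54 in WT on the log2 scale. In 9 pairs the WT range reached at least 1. Among these, RPL33 and RPL43 rest on overlapped A copies with only 2.34 and 1.94 CPM in WT at time point 2. Their ratios varied widely between libraries of the same group. The widest was RPL15, with log2 A over B at time points 1 to 5 of 5.03, 5.68, 5.28, 3.34 and 4.26 in W89A and of 4.95, 5.68, 4.13, 3.35 and 3.80 in WT. RPL9 went through -0.38, 0.07, 0.51, -1.59 and -1.19 in W89A and -0.17, 0.39, -0.71, -1.87 and -1.79 in WT. In both pairs the A copy gained on the B copy around the peak and lost ground in the trough.

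**Figure D4:**
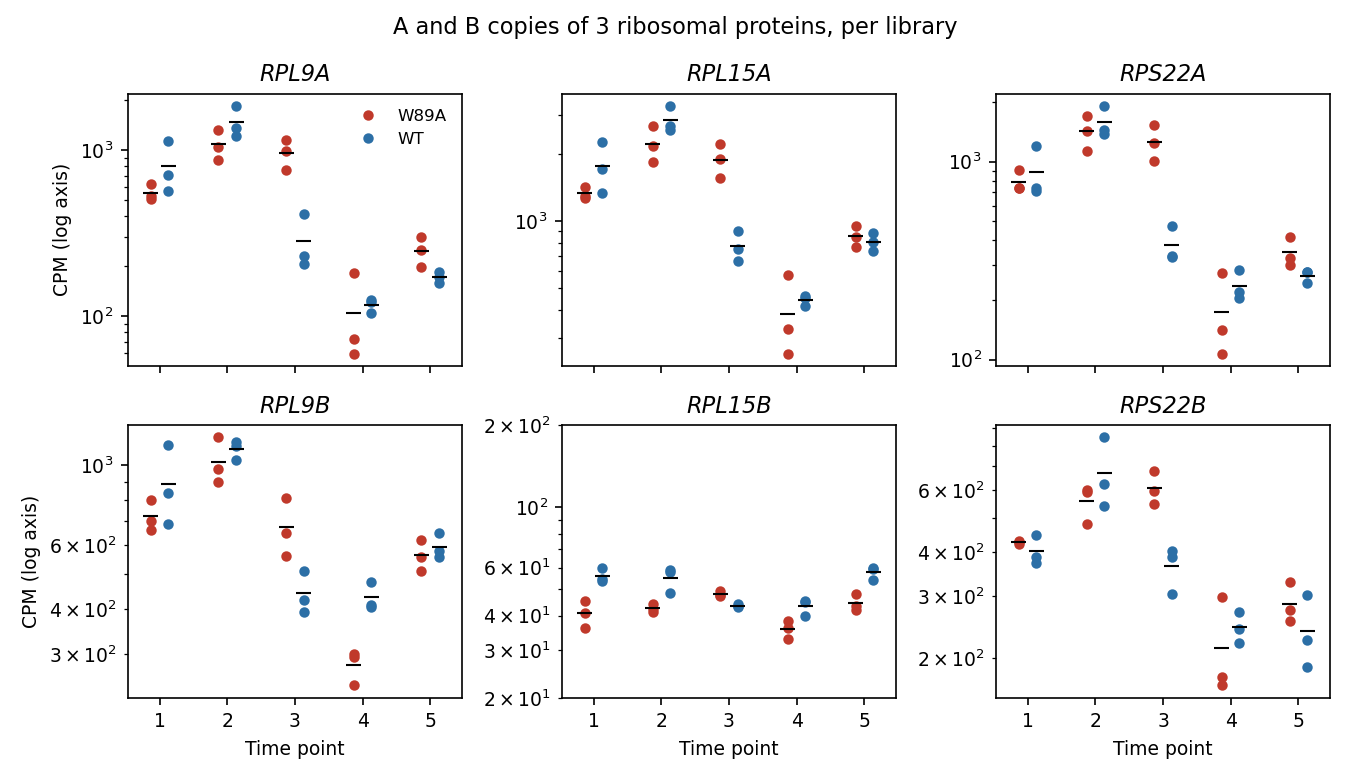
CPM per library (vertical log axes, scaled per panel) by time point for the A copies (upper row) and B copies (lower row) of RPL9, RPL15 and RPS22, in W89A (red) and WT (blue), with group means as black lines. RPL9A, RPL15A and RPS22A stand higher in W89A at time point 3, while RPL15B stays between 32.8 and 60.0 CPM throughout.

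RPS22 and RPS26 were the next by WT range, each at 1.30. In RPS22 log2 A over B was 0.89, 1.34, 1.03, -0.36 and 0.28 in W89A and 1.10, 1.25, 0.05, -0.05 and 0.18 in WT. In RPS26, whose protein eS26 sits at the mRNA exit channel, it was 0.55, 0.42, 0.57, 1.87 and 1.20 in W89A and 0.45, 0.41, 1.30, 1.70 and 1.71 in WT. The B copy of RPS26 therefore had the sharper pulse, against the A copies of RPL9, RPL15 and RPS22. All of these ratios in W89A at time point 3 lay nearer to those of time point 2 than in WT. Read as fold changes, the same values give the larger one at that time point to the copies with the sharper pulse. This is no separate observation, since a strain difference in the ratio is a difference between the fold changes of the copies. The contrast between copies was not tested. RPS26B rose by 1.61 ± 0.29 and RPS26A by 0.90 ± 0.19 (SE, edgeR adjusted p = 6.80e-05 and 0.000390).

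**Figure D5:**
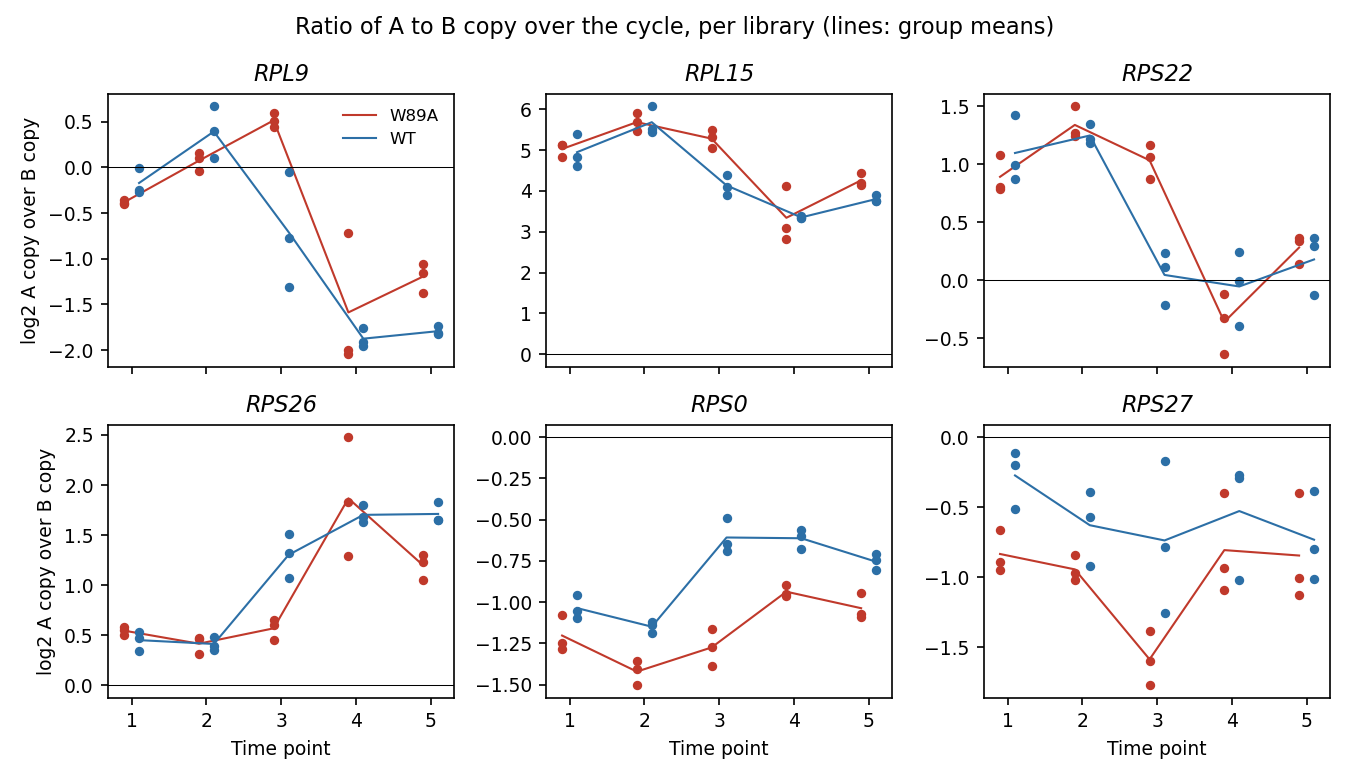
Log2 ratio of the A to the B copy (vertical axes, scaled per panel) by time point for 6 pairs, in W89A (red) and WT (blue). Points are libraries and lines join group means. At time point 3 RPL9, RPL15 and RPS22 lie higher in W89A and RPS26 lower, and RPS0 and RPS27 lie lower in W89A at all 5 time points.

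Averaged over the cycle, strain differences of the ratio were small, with a median absolute value of 0.15 and a largest value of 0.42 on the log2 scale. Those of RPS27 (-0.42), RPS0 (-0.34) and RPL2 (-0.31) had the same sign at all 5 time points, with the B copy gaining in W89A. For RPS0 the mean ratio was -1.17 in W89A and -0.83 in WT, and libraries did not overlap at 4 of the 5 time points. For RPS27 it was -1.0 in W89A and -0.58 in WT, without overlap at 2 time points. RPL43 (-0.40) rests on the overlapped RPL43A, and its value was -0.56 with a prior count of 0.5 and -0.57 to -0.22 with a cycle of either strain left out. RPL15 (0.34) and RPL9 (0.32) differed mainly at time point 3, by 1.15 and 1.22.

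In RPS0 the separate behaviour of the copies can be read in CPM. RPS0B had 2772, 2918 and 4050 CPM at time point 3 in W89A, against 944, 1248 and 896 CPM in WT. RPS0A had 1151, 1302 and 1547 CPM in W89A, against 673, 773 and 573 CPM in WT. Both copies were separate between strains, with log2 fold changes of 1.66 ± 0.23 for RPS0B and 0.99 ± 0.20 for RPS0A (SE, edgeR adjusted p = 1.66e-06 and 0.000188). The Rap1 core shown above was found before RPS0A and not before RPS0B.

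Some members share an upstream region. In 5 places of R64, members stand head to head with at most 1156 bases between them. RPS16B and RPL13A, genes for small-subunit uS9 and large-subunit eL13, face apart over 634 bases on chromosome IV, and RPL13B and RPS16A over 720 bases on chromosome XIII. In each, 2 Rap1 core matches lie in the upstream windows of both genes, of which 2 are within the RPL13A window shown above and 1 within the RPL13B window. At time point 3 the log2 fold changes of these neighbours were 1.25 ± 0.25 for RPS16B and 1.26 ± 0.25 for RPL13A, and 0.89 ± 0.19 for RPL13B and 1.11 ± 0.19 for RPS16A (SE, edgeR adjusted p from 3.97e-05 to 0.000278). The other 3 places hold no core match in either window. The windows of RPL24A and RPL30, with 1156 bases between the genes, do not meet and could not share a match. RPL39 had very few counts. These places therefore give no comparison of neighbours with and without a shared match. The log2 fold changes were 1.04 ± 0.24 for RPL24A and 1.42 ± 0.29 for RPL30, 0.93 ± 0.23 for RPS15 and 1.46 ± 0.23 for RPP2A, and 1.73 ± 0.27 for RPS22A against 0.24 ± 1.08 for the overlapped RPL39 (SE, edgeR adjusted p = 0.871 for RPL39). The likeness of neighbours, and any link of it to a shared core match, was not tested.

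Genes that work with ribosomal proteins were read beside the members. At time point 3, 28.2% of all genes tested were higher in W89A and 22.9% lower. Of 12 genes for dedicated chaperones and loading factors of ribosomal proteins, 11 were higher in W89A at time point 3 and none lower, with a median log2 fold change of 1.10. PUF6, which with Loc1 helps load eL43, was higher by 2.02 ± 0.28 and RRB1, the chaperone of uL3, by 1.93 ± 0.32 (SE, edgeR adjusted p = 2.86e-06 and 2.42e-05). Of 11 other ribosome-bound proteins, 10 were higher and none lower, with a median of 0.91. They included ASC1, a scaffold on the small subunit, at 1.69 ± 0.27, and SSB1, a chaperone of nascent chains, at 2.18 ± 0.31 (SE, edgeR adjusted p = 1.41e-05 and 2.51e-06).

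Of 21 regulators of ribosomal protein gene transcription, 12 were higher at time point 3 and 2 lower, against 28.2% and 22.9% of all genes. Their median log2 fold change was 0.47. IFH1, the coactivator, was higher by 1.23 ± 0.22, RAP1 by 0.67 ± 0.12, SFP1 by 0.50 ± 0.09 and FHL1 by 0.48 ± 0.11 (SE, edgeR adjusted p = 6.80e-05, 5.95e-05, 0.000100 and 0.000666). TOD6, a repressor that binds the PAC element, was higher by 1.98 ± 0.29 (edgeR adjusted p = 7.34e-06). HMO1, the architectural protein of these promoters, was lower, with a log2 fold change of -0.44 ± 0.12 (edgeR adjusted p = 0.00279), as was CKB1, a subunit of casein kinase 2, at -0.23 ± 0.09 (edgeR adjusted p = 0.0479). IFH1 was also higher at time points 2, 4 and 5, by 0.68 ± 0.21, 0.70 ± 0.24 and 0.92 ± 0.23 (SE, edgeR adjusted p = 0.0359, 0.0353 and 0.0138). The same edgeR fit called no ribosomal protein gene higher at these time points.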

How the data were processed

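The deposited table holds raw counts of reads per gene, made by the authors. For aligner, counter, annotation and strand setting, names are not given in the sources used here. Of builds, the submitters' processing notes name only the mouse build mm9, while the identifiers are those of yeast. For 135 of the 137 members the deposited coordinates equal those of the yeast R64 reference (the exceptions are RPL20A and RPL20B), which was used for sequence. The authors' deposited tables also give a log2 fold change and an adjusted p-value per gene and time point, copied only where named, and their count columns showed which library stood at which time point (30 of 30 equal to the count table).

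All 30 libraries entered one edgeR 4.0.16 fit (R 4.3.3) with TMM scaling, the filterByExpr filter, robust quasi-likelihood estimates and 1 mean for each group. It kept 6256 genes and removed 871. All 137 members were kept. All p-values are 2-sided and adjusted by Benjamini-Hochberg over the whole set of genes, at 0.05, and the common biological coefficient of variation was 0.1639. Fold changes carry the SE, group means the SD. CPM use the scaled library size, and paralog ratios a prior count of 2. The fit was checked on simulated counts. Alternatives were DESeq2 1.42.0, other scalings and filters, another placing of 2 libraries, replicate blocks and leaving out cycles.

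The members, lists and rules were chosen with earlier results of these data known, and the promoter window and the 9-letter core after seeing the data. Named members are, at a mean of at least 10 CPM, the 2 highest and 2 lowest fold changes past the threshold per time point and on average, the extremes of level per length and those without the usual WT peak, plus the stalk genes and those failing the WT cycle test. Pairs were named by largest ratio, range and strain difference, list genes by up to 2 per direction plus 5 key ones, and all others after their values were seen.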

Additional observations from a re-analysis of the deposited data

Results flagged for a closer look

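The strain difference of 128 members changed over the cycle by the interaction test (edgeR, adjusted p below 0.05). The same test called 41.9% of all genes. The step between time points 2 and 3 differed between the strains for 128 members and the step between time points 3 and 4 for 128 members, each by a direct test of the difference. The later step takes in the first-cycle W89A libraries whose placing differs between titles and tables.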

How the results depend on the processing

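Members higher at time point 3 numbered 118 to 128 when each cycle of each strain was left out in turn, and the count stayed within 1.5 times of 126 under every setting run. So did the counts cycling in W89A (133 to 134 with a cycle left out), cycling in WT (133 to 136), in the interaction (104 to 126) and in the step between time points 2 and 3 (120 to 130). The step between time points 3 and 4 gave 108 to 128 with a cycle left out and 8 in title order. With a cycle left out, members lower ranged from 0 to 9 at time point 1, 0 to 2 at time point 2, 0 to 99 at time point 4 and 0 to 1 at time point 5, and for the average 1 to 12 were higher and 1 to 16 lower. In title order 1 member was lower at time point 2, 0 at time point 4 and 4 higher and 1 lower on average, and the W89A share at time point 5 was 5.13%. With both first-cycle libraries left out, 0 were lower at time point 4 and 15 higher on average. DESeq2 called 7 lower at time point 1, and for the average 6 lower, where RLE scaling gave 4. Fits on the libraries of 1 time point called 4, 5, 2 and 2 lower at time points 1, 2, 4 and 5. Cycle number as a replicate block over both strains gave 2 lower at time point 1 and moved no other count by more than 1.5 times. Same-numbered libraries of the 2 strains did not deviate together (r over 0.1 in 3 of 15 pairs), so that block has no ground in the data. A replicate block within each strain gave 135 cycling members in W89A and 136 in WT. Leaving out the 10 most abundant other genes gave shares of 12.15 and 7.2% in W89A at time points 1 and 5, and 5.37 and 6.52% in WT at time points 4 and 5. A promoter window of 250 bases before the start codon, tried after seeing the data, held the 10-letter Rap1 form in 6 members, the core in 12 and GACGC in 38. The shares of all promoters were not computed for that window, so these counts cannot be set against a background. Of the 402 values of single named members under other settings, 347 kept their call, 50 lost and 5 gained it, and 0 changed sign, with the fold changes of RPL28 and RPL15B at time point 3 never called. The causes were not tested.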
